A study of Mus musculus with 30 samples.

Results

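The genes described here are 2 semaphorins (Sema4d and Sema4b), 2 neuropilins (Nrp1 and Nrp2), 2 plexins (Plxnb2 and Plxnc1) and Plxdc2, 7 of the 21887 protein-coding genes of the annotation. They were chosen because genotype-specific regions lie at them, so their own counts are given as a description. A region was tied to a gene where it overlapped the gene's span extended by 10 kb on either side, or where its midpoint had an end of that gene as the nearest protein-coding gene end within 100 kb. By this rule the 7 genes held 48 of 22399 listed regions, 29 in the cWT lists and 19 in the cKO lists. Of all 22399 regions, 8394 were in cWT lists and 14005 in cKO lists. Plxdc2 encodes a plexin domain containing protein and is not one of the plexin receptors, so the name of the group fits it in part.

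The mice were C57BL/6J, 8 weeks old, and all carried a tamoxifen-inducible Tmem119-CreERT2 allele, which drives Cre from a gene used as a microglial marker. The cWT genotype was Mir137+/+;Tmem119-CreERT2 and the cKO genotype Mir137loxP/loxP;Tmem119-CreERT2, and both received tamoxifen on 7 consecutive days at 7 to 8 weeks of age. Sorted primary microglia, about 100000 cells per genotype, were profiled by CUT&Tag. In this method a transposase, brought to its target by an antibody, tags the DNA nearby. The labels give 3 replicates for each genotype and each of 5 antibodies, 30 samples in 10 groups. The series text speaks of 4 mice, and whether each replicate was a separate mouse is not stated in the labels. The antibodies were raised against H3K27ac (found at active enhancers and promoters), H3K4me3 (found at active promoters), Pu.1 (a transcription factor of myeloid cells), Pol II and Pol II Ser5P (the polymerase phosphorylated on serine 5, found near gene starts). The protocol gives H3K27ac, Pol II and Pol II Ser5P the same catalogue number, and H3K4me3 and Pu.1 another, so which antibody was used in which library cannot be told from it.

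The microRNA removed in cKO cells, miR-137, is encoded on the forward strand at chr3:118433901-118433923 (GRCm38.p6). It is shown because it is the only designed difference between the genotypes, with its seed, bases 2 to 8, in capitals. Whether any of the 7 genes carries a match to this seed was not tested.
mmu-miR-137-3p: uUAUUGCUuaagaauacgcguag

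Semaphorins are secreted or membrane-bound guidance proteins that steer axons and also act in immune cells. Plexins are their transmembrane receptors and signal to the cytoskeleton and to cell adhesion, while neuropilins are co-receptors that bind class 3 semaphorins and members of the VEGF family. In the brain, microglia meet these cues from neurons and other glia and also express semaphorins and plexins.

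Each antibody and genotype is represented by 1 list of regions that the authors called specific for that genotype, with no value per replicate. No difference could therefore be set against the spread between replicates, read depth is unknown, and no test was made. A region in the cKO list means that it was listed as specific for cKO cells, not that its signal was measured here. The p-value that the authors deposited for each region serves here to order the regions, since no source used here says what it tests. For the 48 regions it ran from 0.333 to 0.966, and none was under 0.05, against 169 of all 22399 regions. None of the 48 was among the 907 regions named primary in the lists. Of 10 listed microglial markers 9 had a region in some list, where 49.6% of all protein-coding genes had one. The counts were 4 of 6 for endothelial and mural cells, 3 of 6 each for border macrophages, astrocytes and the oligodendrocyte lineage, 2 of 6 for other blood cells and 1 of 7 for neurons. The lists hold differences, so these counts do not measure how pure the cells were.

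The regions of these genes were H3K27ac in cWT and polymerase in cKO, with few exceptions. Of 26 H3K27ac regions 25 were in the cWT list and 1, at Plxdc2, in the cKO list. Of 19 polymerase regions 18 were in the cKO lists, 9 each for Pol II and Pol II Ser5P, and 1, a Pol II region at Nrp2, in the cWT list. The 3 H3K4me3 regions, at Nrp1, Nrp2 and Plxnb2, were in the cWT list. The cKO H3K4me3 list, both Pu.1 lists and the cWT Pol II Ser5P list held no region at any of the 7 genes. The same imbalance runs through the lists as a whole, where 89.2% of H3K27ac regions were cWT-specific and 95.4% of polymerase regions cKO-specific. For H3K4me3 the cWT share over all regions was 38.5%.

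**Figure D1:**
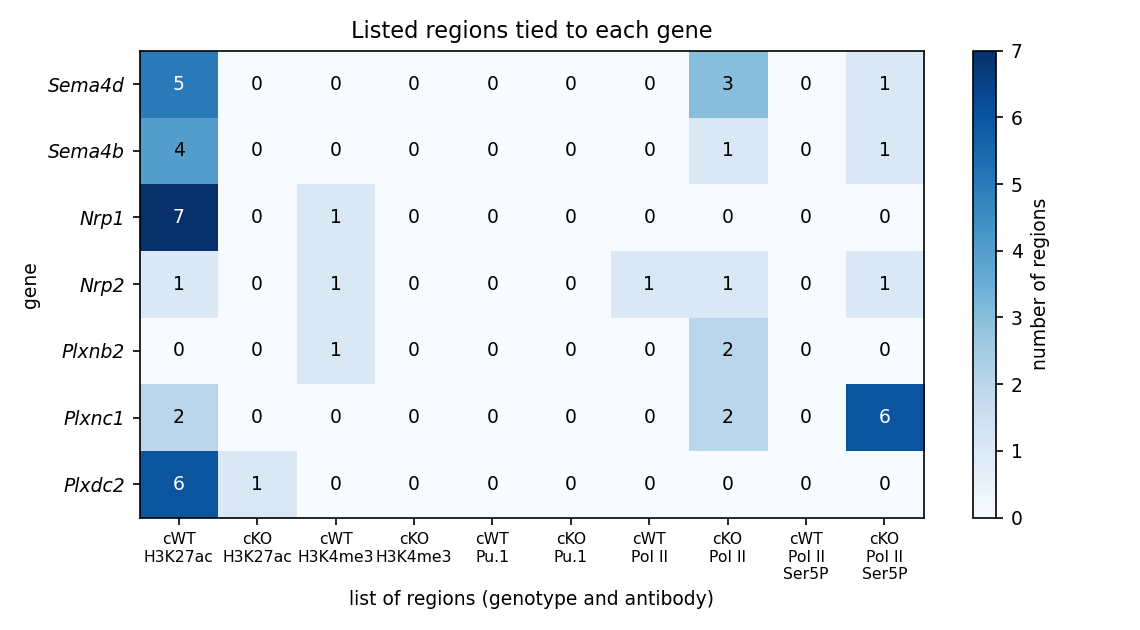
Number of listed regions tied to each of the 7 genes (rows) in each of the 10 lists (columns, genotype and antibody), with darker blue for more regions. Nrp1 has 7 regions in the cWT H3K27ac list and none in a cKO list, while Plxnc1 has 6 in the cKO Pol II Ser5P list.

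A cWT H3K27ac region lay at 6 of the 7 genes, all but Plxnb2, where the same rule reached 26.1% of all protein-coding genes. A cKO Pol II region lay at 5 (background 22.4%) and a cKO Pol II Ser5P region at 4 (27.9%). For cWT H3K4me3 the count was 3 (5.62%), and for cKO H3K27ac and cWT Pol II it was 1 each (4.31 and 2.16%). In the cKO H3K4me3 and cKO Pu.1 lists, with no region at these genes, 8.47 and 4.96% of protein-coding genes had a region. In the cWT Pu.1 and cWT Pol II Ser5P lists the shares were 0.187 and 0.722%. The 7 genes are long, from 26.5 to 405 kb, where the median protein-coding gene spans 17169 bp, and a long gene collects more regions. Among the 8267 genes at least as long as Plxnb2, the shortest of the 7, the shares were 34.6% for cWT H3K27ac, 27.8% for cKO Pol II and 33.8% for cKO Pol II Ser5P. For the other lists of these long genes they were 6.25% for cKO H3K27ac, 5.99% for cWT H3K4me3, 9.37% for cKO H3K4me3, 0.29% for cWT Pu.1, 7.34% for cKO Pu.1, 2.79% for cWT Pol II and 0.956% for cWT Pol II Ser5P. Because the 7 genes were chosen on these lists, nothing is read from their excess over these shares.

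Taking lists together, all 7 genes had a cWT region, against 30.2% of all protein-coding genes and 38.7% of the long ones. All but Nrp1 had a cKO region, 6 genes against 40.2 and 48.9%. A region in any list was found at 49.6% of all genes and 59.7% of the long ones. A cKO polymerase region lay at 5 genes, all but Nrp1 and Plxdc2, against 34.5 and 41.8%, and a cWT polymerase region at Nrp2 alone, against 2.76 and 3.54%. Both a cWT H3K27ac region and a cKO polymerase region were tied to Sema4d, Sema4b, Nrp2 and Plxnc1, 4 genes against 15.9 and 22.1%. Within the gene spans alone a cWT H3K27ac region remained at 6 genes (16 and 26.2%) and a cKO polymerase region at 4 (23.4 and 33.2%), without Sema4b. At least 5 cWT H3K27ac regions were tied to Nrp1, Plxdc2 and Sema4d, 3 genes against 0.681 and 1.68%. These counts, too, come from the lists on which the genes were chosen. The Nrp1 count includes adjoining regions, and with regions within 1 kb merged its 8 regions of all lists became 5.

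**Figure D2:**
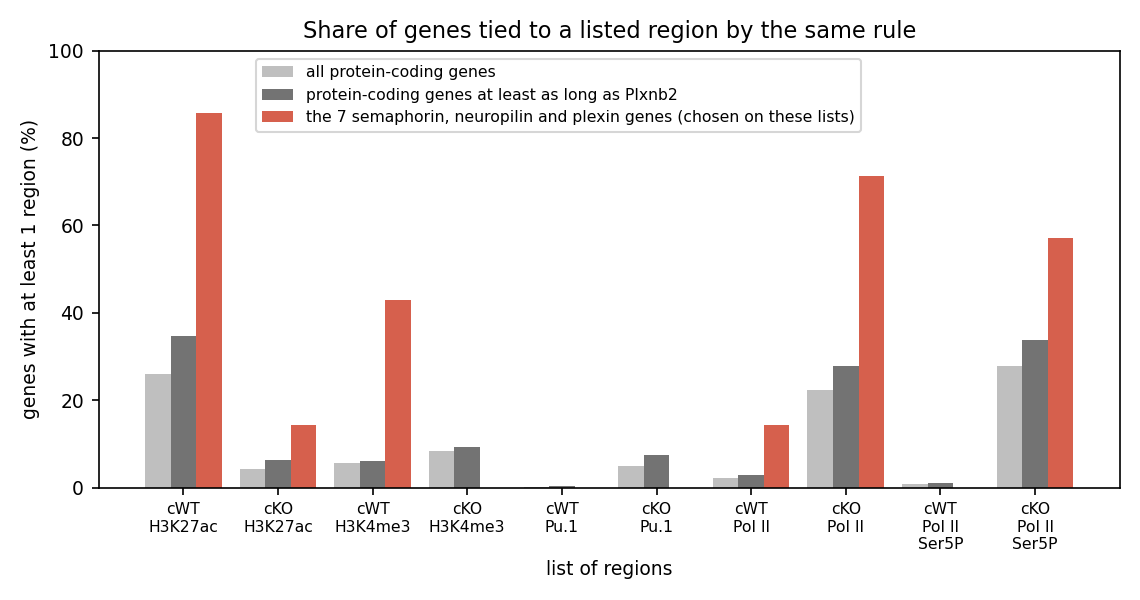
Share of genes with at least 1 region (vertical axis, percent) in each of the 10 lists, for all 21887 protein-coding genes, for the 8267 at least as long as Plxnb2, and for the 7 genes, which were chosen on these lists. The bars show the background against which the counts of 6, 5 and 4 genes in the cWT H3K27ac, cKO Pol II and cKO Pol II Ser5P lists stand.

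At 5 RefSeq starts a listed region covered part or all of the 250 bases before the start. These windows are shown because they place the regions against a start, one each for both semaphorins, both neuropilins and Plxnb2. Capitals mark the bases inside the listed region, and each window is written 5′ to 3′ along the gene, from RefSeq on GRCm38.p6. The region was cWT H3K27ac at Sema4d (chr13:51756684-51756933, minus strand, all 250 bases covered) and Sema4b (chr7:80198338-80198587, plus strand, bases 1 to 218). It was cWT H3K4me3 at Nrp1 (chr8:128358823-128359072, plus strand, bases 1 to 148), cKO Pol II Ser5P at Nrp2 (chr1:62703067-62703316, plus strand, bases 231 to 250) and cKO Pol II at Plxnb2 (chr15:89180789-89181038, minus strand, bases 1 to 182).
Sema4d: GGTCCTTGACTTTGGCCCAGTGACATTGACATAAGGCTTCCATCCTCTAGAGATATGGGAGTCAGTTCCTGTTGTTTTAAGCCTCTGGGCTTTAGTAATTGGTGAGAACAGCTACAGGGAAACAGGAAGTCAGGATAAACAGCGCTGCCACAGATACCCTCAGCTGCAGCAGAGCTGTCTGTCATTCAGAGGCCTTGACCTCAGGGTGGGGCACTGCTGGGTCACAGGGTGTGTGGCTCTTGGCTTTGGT
Sema4b: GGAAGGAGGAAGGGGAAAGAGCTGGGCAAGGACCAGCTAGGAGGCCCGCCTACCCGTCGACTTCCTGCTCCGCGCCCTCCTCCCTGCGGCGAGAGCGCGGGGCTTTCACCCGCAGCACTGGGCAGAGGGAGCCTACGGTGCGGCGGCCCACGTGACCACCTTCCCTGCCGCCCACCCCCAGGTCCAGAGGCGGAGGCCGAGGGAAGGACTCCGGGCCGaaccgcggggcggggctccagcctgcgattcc
Nrp1: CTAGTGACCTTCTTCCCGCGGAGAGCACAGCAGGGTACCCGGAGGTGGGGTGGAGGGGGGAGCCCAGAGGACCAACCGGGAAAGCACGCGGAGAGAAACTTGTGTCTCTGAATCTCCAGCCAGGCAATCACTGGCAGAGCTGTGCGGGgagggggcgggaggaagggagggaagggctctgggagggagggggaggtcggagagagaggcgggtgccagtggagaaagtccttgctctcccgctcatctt
Nrp2: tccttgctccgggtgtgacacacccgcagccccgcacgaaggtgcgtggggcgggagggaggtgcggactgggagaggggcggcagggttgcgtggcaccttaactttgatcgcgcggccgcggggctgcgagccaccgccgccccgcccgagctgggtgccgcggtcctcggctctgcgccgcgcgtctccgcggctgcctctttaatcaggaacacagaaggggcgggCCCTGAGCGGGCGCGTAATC
Plxnb2: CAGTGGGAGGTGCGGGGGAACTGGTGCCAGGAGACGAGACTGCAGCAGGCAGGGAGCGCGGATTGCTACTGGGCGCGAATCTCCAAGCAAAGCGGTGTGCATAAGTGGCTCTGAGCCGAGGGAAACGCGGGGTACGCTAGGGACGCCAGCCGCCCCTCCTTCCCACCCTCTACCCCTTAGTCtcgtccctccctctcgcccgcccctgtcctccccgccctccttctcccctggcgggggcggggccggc

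The Sema4d window has 52.0% G and C and 1 CG pair, while the other 4 have 64.4 to 72.4% and 11 to 32 CG pairs. Over all 32851 windows of the table the median is 52.4% with 6 CG pairs. The letters GAGGAAG, a form of the core that Pu.1 and other ETS factors bind, were searched on both strands. Of the 10 windows before all starts given for 6 of the 7 genes, 4 hold them, against 10.6% of all windows. Among the 5 shown, they stand at position 6 of the Sema4b window, inside the listed H3K27ac region, and at position 159 of the Nrp1 window, outside the listed H3K4me3 region. The other Sema4b start (position 154) and Plxnc1 (positions 85 and 97) hold the other matches. The AP-1 letters TGANTCA, a palindrome counted once, occur in 1 of the 10 windows, before a Sema4d start that no listed region covers, against 6.75% of all windows. These matches describe letters and are not measured binding sites, and neither Pu.1 list held a region at these genes. Neither share of all windows was matched for G and C content, and the 4 windows with GAGGAAG include both Sema4b starts.

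Sema4d, also known as CD100, is a membrane-bound class 4 semaphorin that is shed from immune cells and binds plexin B1, plexin B2 and CD72. The gene lies at chr13:51685529-51793678, and 9 regions were tied to it, 5 cWT H3K27ac, 3 cKO Pol II and 1 cKO Pol II Ser5P. Of the 25 cWT H3K27ac regions at the 7 genes, the one with the lowest deposited p lay over the start whose window is shown above, at chr13:51756293-51756985. The 3 starts given for Sema4d, a minus-strand gene, all lie inside the span, and none was given at its 5′ end, 51793678. Its p of 0.333 ranked 379 of 6995 in that list, and its width of 693 bp exceeds the list's median of 435 bp. A further cWT H3K27ac region at 51686962 to 51687465, near the 3′ end of the gene, ranked 1513, and the other 3 ranked from 4346 to 5823. The H3K27ac regions thus include both a start and the far end of the gene.

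The polymerase regions of Sema4d lay at other places. A cKO Pol II region at 51736328 to 51736680 and the cKO Ser5P region at 51736270 to 51736633 shared 306 bp, about 2.9 kb downstream of the start at 51739446. A Pol II region at 51742739 to 51743055 lay 3.5 kb upstream of that start, within the gene. The last, at 51800942 to 51801236, was 7264 bp outside the span. No H3K27ac region of Sema4d overlapped a polymerase region. Of the 9 regions 1 was also tied to Secisbp2.

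Sema4b encodes another class 4 transmembrane semaphorin (gene at chr7:80186870-80226646). Of its 6 regions only 2, both cWT H3K27ac, were inside the gene. One, at 80198206 to 80198555, reached to 33 bp before the start at 80198588, and the other, at 80203383 to 80203946, ranked 1424 of 6995 by p. The remaining 4 were tied to Sema4b by the 10 kb extension. They lay instead at the starts of Cib1 (80232805, minus strand) and Gdpgp1 (80232893, plus strand), which point away from each other. There, adjoining cWT H3K27ac regions from 80232052 to 80233093 overlapped a cKO Pol II region (80232765 to 80233087) and a cKO Ser5P region (80232635 to 80233080). These were the only 2 of the 25 cWT H3K27ac regions that overlapped a cKO polymerase region. Over all 6995 cWT H3K27ac regions, 1105 (15.8%) overlapped a region of either cKO polymerase list. Without these 4 regions, which are nearer to the ends of other genes, Sema4b had no polymerase region.

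Nrp1, a co-receptor for Sema3a and VEGF-A, had regions in cWT lists only (gene at chr8:128358591-128505476). It had 7 cWT H3K27ac regions and 1 cWT H3K4me3 region, with none of either polymerase antibody. A count of 7 cWT H3K27ac regions was reached or passed by 0.169% of protein-coding genes of all lengths. That share is not matched to the length of Nrp1, 147 kb, and a long gene collects more regions. With regions within 1 kb of each other merged, its 8 regions became 5, since 5 of the 7 H3K27ac regions fall into 2 clusters. The H3K4me3 region, at 128358504 to 128358970, lay between 2 starts that point away from each other, that of Nrp1 at 128359073 and that of the lncRNA A930035F09Rik at 128358237. Of the H3K27ac regions 2 were inside Nrp1, 32.3 and 76.8 kb downstream of the start. The other 5 lay inside A930035F09Rik (chr8:128204713-128358237).

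Those 5 upstream regions of Nrp1 made up the 2 clusters. An adjoining pair from 128356832 to 128357444 lay 1.8 to 2.1 kb upstream of the Nrp1 start by midpoint. The other 3, between 128266401 and 128268717, lay 90.6 to 92.4 kb upstream. They entered by the nearest-end part of the rule, and the lncRNA's own ends were not considered, since only protein-coding ends count. With spans alone, Nrp1 kept 3 of its 8 regions. The Nrp1 region farthest from the gene end lay 91900 bp away, inside the limit, and the next, at 128235281 to 128236102 in the same list, lay 122900 bp away and was not counted. By the span part of the rule, the closest region left out was a cKO Pol II region 14230 bp from Plxnb2.

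Nrp2, the co-receptor for Sema3f and VEGF-C, had 1 region in each of 5 lists (gene at chr1:62703317-62818692). It was the only one of the 7 with polymerase regions of both genotypes. At its start, at 62703317, a cKO Pol II Ser5P region (62703297 to 62703687) and a cWT Pol II region (62703416 to 62703750) shared 272 bp. Such overlap was common in these lists, where 191 of 394 cWT Pol II regions (48.5%) overlapped a cKO Ser5P region. The cWT H3K4me3 region lay 3.3 kb and the cWT H3K27ac region 18.5 kb downstream of the start, and a cKO Pol II region lay 24.4 kb upstream. All 5 stood in the later-ranked part of their lists or at its border, with deposited p from 0.823 to 0.949.

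**Figure D3:**
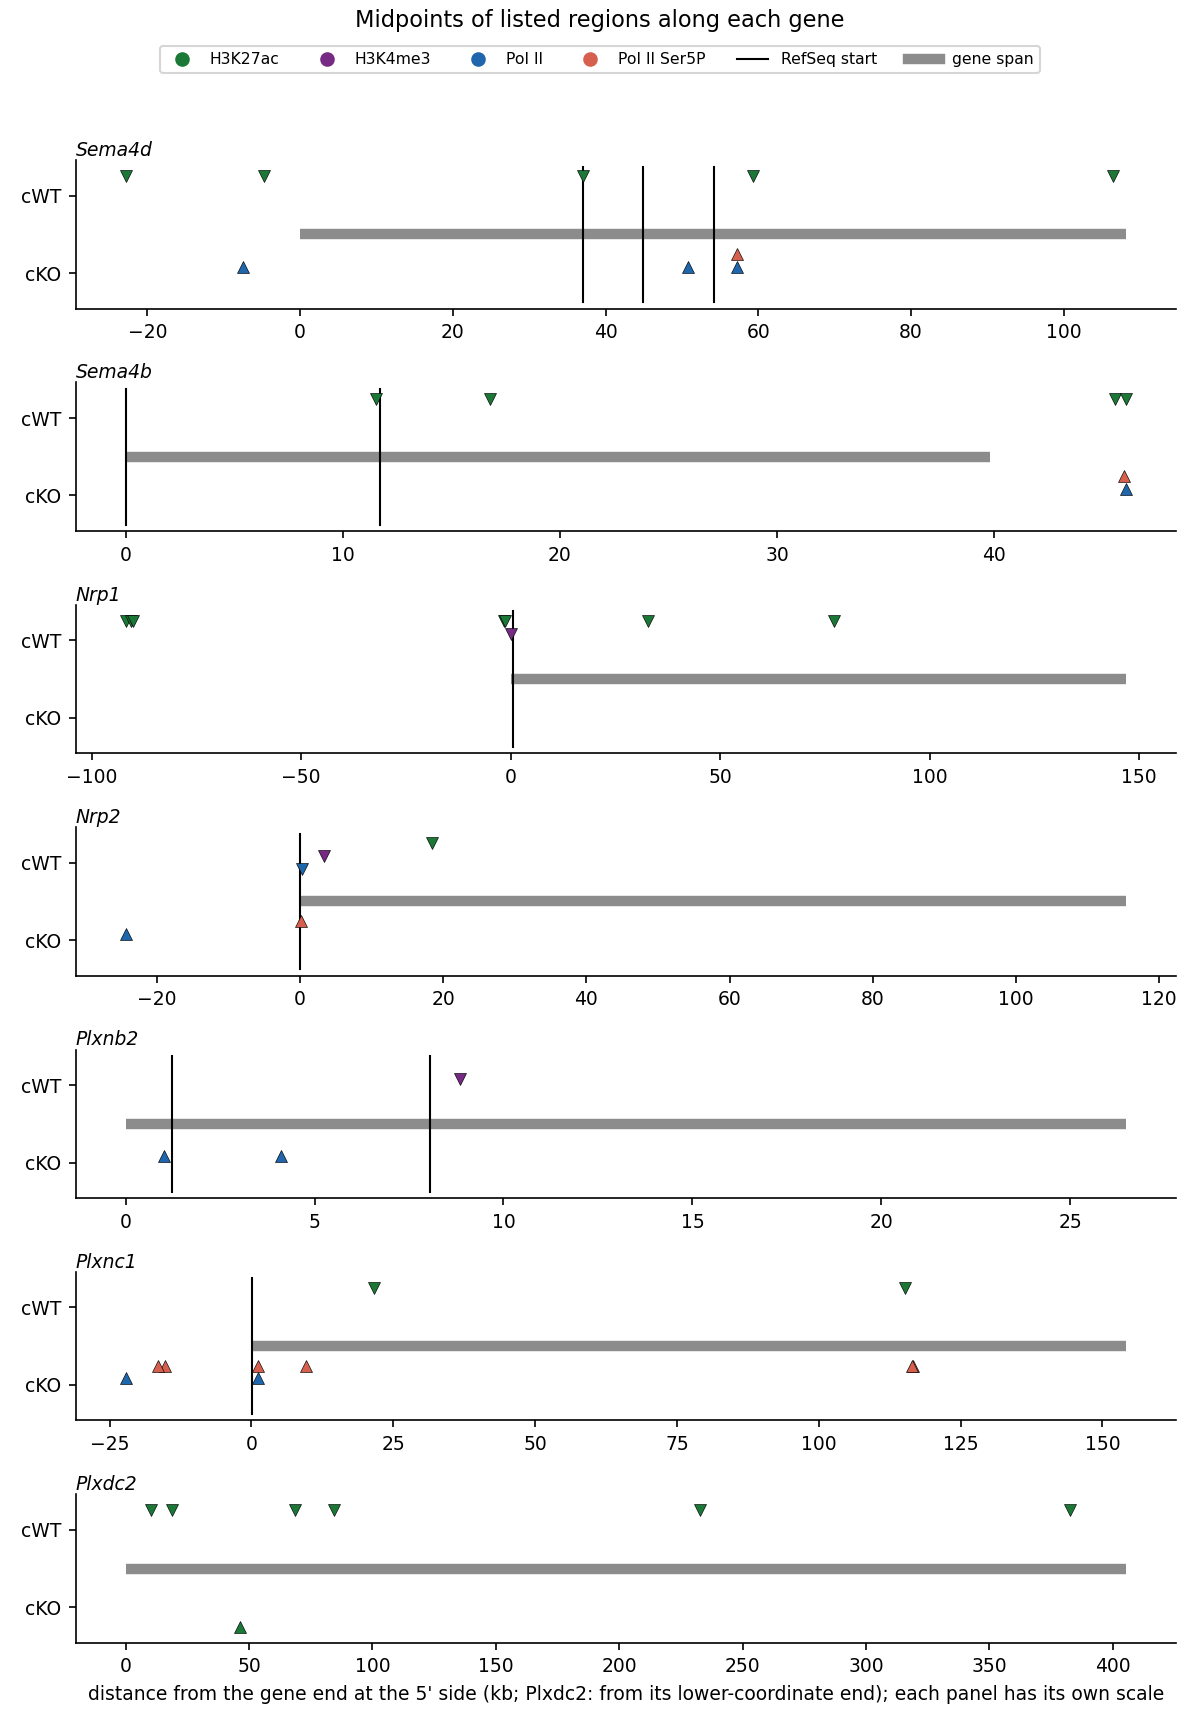
Midpoints of listed regions along each gene, in kb from the gene end at the 5′ side (Plxdc2 from its lower-coordinate end), with cWT lists above and cKO lists below the grey gene span, colours for antibodies and black lines for RefSeq starts. Polymerase regions sit mostly below the spans and H3K27ac regions above them, and the Nrp1 panel has no mark below its span.

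Plxnb2, a receptor for class 4 semaphorins, was the shortest gene (chr15:89155546-89182018) and had 3 regions, all inside the span. A cKO Pol II region at 89180857 to 89181131 covered most of the window shown above. Another, at 89177719 to 89178105, lay 2.9 kb downstream of the same start and had the lowest p of the 9 cKO Pol II regions, 0.618 (rank 1212 of 4647). The cWT H3K4me3 region, at 89172931 to 89173431, lay 770 bp downstream of another start at 89173951 by midpoint. All 3 were tied to the neighbouring gene Dennd6b as well. This gene had no H3K27ac and no Ser5P region in either genotype.

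Plxnc1 encodes plexin C1, the receptor of Sema7a, and its gene lies at chr10:94790866-94945015. It had the most regions of the 7, 10 in all, of which 6 were cKO Ser5P, 2 cKO Pol II and 2 cWT H3K27ac. At least 5 cKO Ser5P regions were tied to 0.306% of protein-coding genes of all lengths, a share not matched to the length of Plxnc1, 154 kb. Near the start, at 94944845, a cKO Pol II region (94943578 to 94944285) contained a cKO Ser5P region (94943592 to 94944112), 560 and 733 bp into the gene at their nearer edges. A further Ser5P region lay 9.5 kb downstream.

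Deeper in Plxnc1, an adjoining pair of cKO Ser5P regions from 94828148 to 94828740 lay 116 kb downstream of the start. A cWT H3K27ac region stood close by, at 94829565 to 94829909, without overlap. The other cWT H3K27ac region, at 94923105 to 94923654, was 21.5 kb downstream. Upstream of the gene, 2 cKO Ser5P regions at 15.5 and 16.6 kb and a cKO Pol II region at 22.4 kb were tied by the nearest end alone, and 1 of them overlapped the lncRNA Gm40744. Sema7a, the ligand of plexin C1, had no region in any list.

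Plxdc2 encodes a transmembrane protein that binds PEDF, the product of Serpinf1. It is the longest of the 7 genes (chr2:16355740-16761132, 405 kb) and the only one with H3K27ac regions of both genotypes, 6 in the cWT list and 1 in the cKO list. All lay inside the span, and it had no region of another antibody. From the lower-coordinate end, the cWT regions stood at 10.4, 18.9, 68.8, 84.3, 233 and 383 kb and the cKO region, at 16401919 to 16402333, at 46.4 kb. The cKO region thus stood between cWT regions and overlapped none of them. Its p of 0.770 ranked 265 of 847 in the cKO list. Per 100 kb of span Plxdc2 had 1.73 regions, the fewest of the 7, and Plxnb2 with 11.3 the most.

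In position the regions were mostly away from starts. Of the 48, 11 lay within 2 kb of a start of their own gene (for Plxdc2, of a gene end), and with other genes' starts the count was 15, or 31.2%, against 38.8% of all listed regions. The share at a coding start differs by list, from 9.09% for cWT Pu.1 to 68.9% for cWT H3K4me3, so the mix of lists enters these pooled shares. Of the 25 cWT H3K27ac regions 4 were at an own start and 6 at any coding start, against 24.9% of that list. In the cKO lists 3 of 9 Pol II regions overlapped a cKO Ser5P region, at Sema4d, Plxnc1 and the Cib1 and Gdpgp1 starts, against 51.2% of all cKO Pol II regions. Widths ran from 226 to 720 bp with a median of 377 bp. By deposited p, 16 of the 48 stood in the first 50% of their list.

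**Figure D4:**
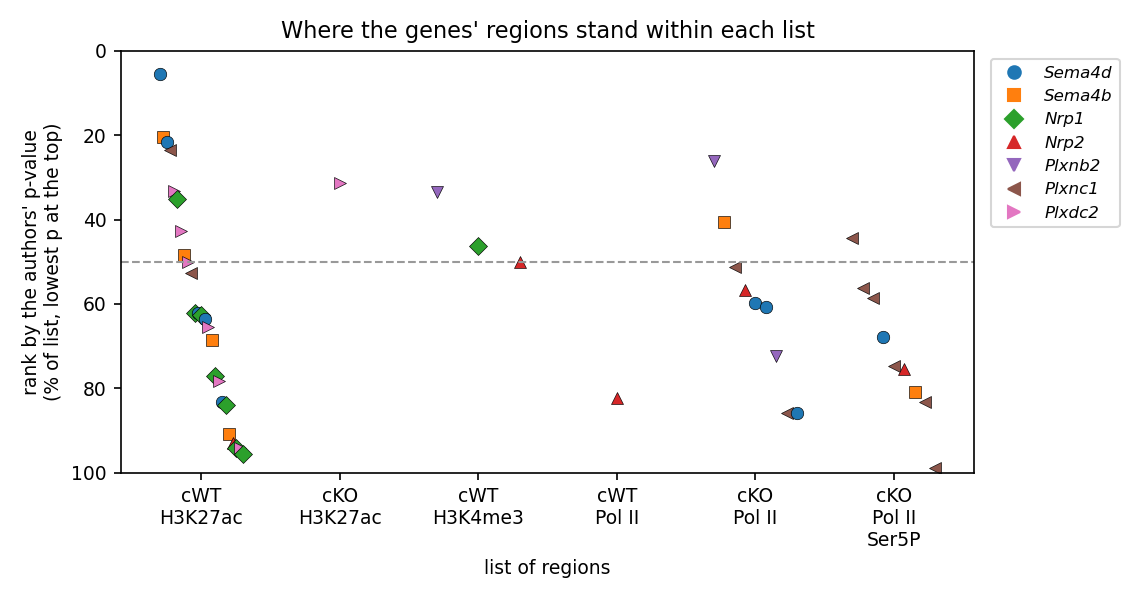
Rank of each region by the authors' deposited p-value within its own list (vertical axis, percent of the list, lowest p at the top) for the 6 lists that hold any, with 1 symbol per gene and the dashed line at 50%. Sema4d has the highest-placed region, rank 379 of 6995, and 16 of 48 regions stand above or on the line.

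The 33 semaphorin, neuropilin, plexin and plexin domain genes include 26 beside the 7. Of these 26, 12 had a region in some list, against 49.6% of all protein-coding genes. The cWT H3K27ac list reached 9 of the 26 (background 26.1%), with 3 regions each tied to Sema4c, Plxna1 and Plxna4 and 2 to Sema6d. The 3 Plxna1 regions all lay outside its span and were tied by nearest end alone, 35385, 57970 and 58889 bp away. Of the Sema4c regions 2 adjoined. Plxna1 and Plxna4 encode class A plexins, which pair with neuropilins. The cKO Pol II Ser5P list reached 5, Plxdc1 with 2 regions and Sema6c, Sema6d, Plxna3 and Plxna4 with 1 each (background 27.9%). The cKO Pol II list reached 2, Plxdc1 and Sema6c (22.4%). The regions tied to Plxdc1 all lay outside its span. None of the 26 had a cKO H3K27ac region (background 4.31%).

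Among the 26, 4 had a cWT H3K4me3 region, Sema4g, Sema6c, Plxna1 and Plxdc1 (background 5.62%), and 1, Plxdc1, a cKO H3K4me3 region (8.47%). The Sema4g region lay outside its span, 335 bp from an end of Mrpl43. The cWT and cKO H3K4me3 regions tied to Plxdc1 were 530 and 1115 bp from an end of Arl5c. The family's single Pu.1 region, in the cKO list at chr6:89280577-89280900, overlapped a cWT H3K27ac region at 89280669 to 89281188 and was tied to Plxna1 by nearest end, 35575 bp away. At Sema6d a cWT Pol II region (chr2:124610045-124610528) and a cKO Ser5P region (124610264 to 124610649) overlapped, as at the start of Nrp2. Plxnb1, the high-affinity receptor of Sema4d, and Sema3a, the ligand that binds Nrp1, had no region in any list. For the 7 genes the nearest cKO Pu.1 region lay between 112 kb (Sema4b) and 1512 kb (Nrp1) away.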

How the data were processed

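CUT&Tag libraries of cWT and cKO microglia were grouped by their titles. The authors deposited 10 region lists, each for 1 antibody in 1 genotype. The submitters' processing notes name HOMER 4.11, bedtools 2.30.0, MACS2 2.2.7.1 and Bowtie2 2.4.4, and the builds mm10 and GRCm38. The role of each tool, the joining of replicates and the criterion for a specific region are not given in the sources used. The deposited score (1 to 1000) and the deposited signal are the authors' values per region on unstated scales. The deposited p-value is the authors' too, and their adjusted p-value was not used. Scores were not compared, and signals only for equality between adjoining regions.

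Positions are counted from 1. Gene spans came from RefSeq GRCm38.p6, and starts, strands and sequences from a RefSeq table with a start for 79.9% of protein-coding genes and 6 of the 7 genes. Exons, introns and UTRs were not annotated. The assignment and overlap functions were tested on simulated data. Python 3.11.15, numpy 2.4.6, pandas 2.3.3 and matplotlib 3.10.9 were used.

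The 7 genes, the family and marker lists and the alternatives were chosen with earlier results of these data known, and the letters searched in promoters after the files were seen. Named genes were the 7 with all their regions, up to 4 examples per list among their family and partners, and the nearest genes by region counts. Plxnb1, Sema3a, Sema7a, Flt1, Serpinf1, Vegfa, Met, Trem2 and the genes that neighbour a region were named after their values were seen. Alternatives changed how regions were tied to genes, merged, filtered by width or p, overlapped or placed at starts.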

Additional observations from a re-analysis of the deposited data

How the results depend on the processing

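A stricter p leaves regions out, so the counts of the 7 genes could not rise with it, and all fell. In the 50% of each list with the lower p, the cWT lists held 12 of the 29 regions and the cKO lists 4 of 19, with 9 of the 25 cWT H3K27ac and 3 of the 18 cKO polymerase regions. At p under 0.05 each of these 4 counts was 0. With gene spans alone the cKO count was 12, the cWT H3K27ac count 16 and the cKO polymerase count 11. A required overlap of 50% of the shorter region left 1 of 2 cWT H3K27ac regions over cKO polymerase, and a 5 kb window raised the regions at a start from 11 to 18. The other 24 of 37 alternative values for these counts stayed within 1.5 times the main one, including those with adjoining regions merged, an alternative chosen after seeing the data. In the counts per gene, 18 of 56 alternative values moved by more, 13 of them under a stricter p. All 18 fell, a direction that is built in, since apart from merging these alternatives only leave regions out. Depth is unknown and limits every statement to presence in a list. Leaving out a replicate was not run. No paired analysis was possible because the lists hold no value per replicate.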

Other observations

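Of 39 ligand partners, co-receptors and effectors of semaphorin signalling, 27 had a region in some list, against 49.6% of all protein-coding genes. A cWT H3K27ac region was tied to 17 (background 26.1%), with 3 regions at Pak1, a kinase activated by Rac and Cdc42, and for the small GTPase Rap1a, and 2 for Dpysl2 (CRMP2, which acts in growth cone collapse) and Farp2. Outside the Rap1a span lay its region at chr3:105716816-105717344, 3762 bp from an end of Inka2, and another 24195 bp from an end of Rap1a. The Farp2 regions adjoined and lay outside its span, 13236 and 13683 bp from its end. A cKO polymerase region was tied to 20 (background 34.5%), led in the Ser5P list by Rap1a with 4, Rap1b and the kinase Fyn with 3 each, followed by Cd72, a receptor of Sema4d, and others with 2. These counts follow the rule, so a region need not lie inside the gene. Both Cd72 Ser5P regions lay outside its span, and that at chr4:43442247-43442669 was 181 bp from an end of Tesk1. Ser5P regions 14121 and 14851 bp from an end of Rap1a, and 14982 and 60446 bp from an end of Rap1b, also lay outside the spans. At Fyn, the cWT H3K4me3 region chr10:39369853-39370097 shared bases with a Pol II region (39369390 to 39369991) and a Ser5P region (39369616 to 39369900), both cKO. Serpinf1, which encodes the Plxdc2 ligand PEDF, had 2 cWT H3K27ac regions. One of them, at chr11:75415139-75417007, was 1869 bp wide, where the widest region of all lists has 2166 bp. The other, at chr11:75429161-75429588, lay outside the Serpinf1 span, 2362 bp from an end of Serpinf2.

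At the VEGF receptor Flt1, a cWT H3K27ac region (chr5:147611286-147611740) and a cKO H3K4me3 region (147611299 to 147611727) covered nearly the same bases, and both were named primary. The 3 cWT H3K27ac regions at Pak1, between 97863731 and 97888621 of chromosome 7, lay inside the gene. Vegfa, Met and Trem2 had no region in any list.

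Region names carry numbers that rise along each chromosome. At Nrp1 every number from 18416 to 18422 of the cWT H3K27ac list was listed, 7 of 7, and at Plxnc1 every number from 917 to 922 of the cKO Ser5P list, 6 of 6. In the cWT H3K27ac list 6 of 9 numbers were listed at Plxdc2, 5 of 7 at Sema4d, 4 of 5 at Sema4b and 2 of 2 at Plxnc1. In the cKO Pol II list the counts were 3 of 3 at Sema4d, 2 of 3 at Plxnc1 and 2 of 2 at Plxnb2. Each range runs from the first to the last listed region of a gene chosen for its listed regions, so a high share is built in and nothing is read from it. Over the whole lists, at most 35.1% of the numbers were listed for cWT H3K27ac, 65.6% for cKO Ser5P and 47.0% for cKO Pol II. No source used here says what the numbers left out stood for.

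In 4 places, 2 at Nrp1 and 1 each at Sema4b and Plxnc1, regions of 1 list adjoined with no base between them and carried the same deposited signal. The same held for all 563 adjoining pairs of the 10 lists. Each pair counts as 2 regions in the counts above.

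By the sum of absolute differences in region counts over the 10 lists, Fyb and Itgb5 had the same counts as Sema4d, and Usp30 the same as Nrp2. For Sema4b 11 genes had the same counts, and for Plxnc1 8 genes were nearest, at a sum of 2.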
